A study of Mus musculus with 8 samples.

Results

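Chromatin accessibility was examined at 35 genes of lipid synthesis, out of 21938 protein-coding genes annotated in the mouse, in bulk ATAC-Seq libraries of hepatocytes during liver regeneration. The rule lists the members by their known roles, and the lists were drawn up with earlier results of these data known: 20 are genes of sterol synthesis and its control, and 15 are genes of fatty acid and glycerolipid synthesis and their control. The 8 libraries were prepared from hepatocytes isolated by collagenase perfusion from mice fed a normal diet, which the labels give as C57BL/6 with an age of 10 to 12 weeks; the study's methods give males of C57BL/6J and a slightly younger age at surgery. There were 4 groups of 2 libraries: undamaged liver (0 h), and liver at 48 h, 72 h and 96 h after partial hepatectomy (PHx), the surgical removal of most of the liver mass. In this assay the Tn5 transposase inserts adapters into open DNA, and the deposited lists hold the intervals (peaks) called in each library. The study describes bulk replicates from separate hepatocyte preparations at 0 h and 48 h, more per time point than the 2 libraries here. Its methods give 4 mice per time point for hepatocytes at all 4 times, but the labels do not tie a library to an animal. Where the libraries were not from separate animals, a p-value measures only the spread between libraries, which may be technical.

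Sterols and fatty acids are both built from cytosolic acetyl-CoA. Sterol synthesis runs through mevalonate, isoprenoid pyrophosphates and squalene to lanosterol and cholesterol, and is switched on by the transcription factor SREBP-2 (Srebf2) when sterols are low, while the Insig proteins hold SREBPs in the endoplasmic reticulum when sterols are high. Fatty acid synthesis in hepatocytes responds to insulin and glucose through SREBP-1c (Srebf1) and ChREBP (Mlxipl), and SREBPs act at promoters beside the general factors NF-Y and Sp1.

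The promoter of each gene was represented by the strongest distinct interval within 1 kb of any transcription start site (TSS) in the GENCODE basic set, and its position in the library's list, ordered by the peak caller's −log10 p, was the measurement: rank 1 is the strongest interval of a library, and a larger rank number is a weaker promoter. Promoter strength is −log2 of that rank, so a difference of −1 is a doubling of the rank number. A promoter was counted as weaker at a time point when both of its libraries ranked behind both 0 h libraries, and as stronger in the reverse case. With 2 libraries against 2 the smallest two-sided p of an exact permutation test is 0.333, so such counts carry no test and are read beside the share of all coding genes that met the same rule. Of the 35 promoters, 34 had an interval in all 8 libraries and Thrsp had one in 6.

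Sequence features that did not enter the choice of the members were counted next. In a 300 bp window around the summit of each promoter's strongest interval, CCAAT, the core bound by NF-Y, was present on either strand in 15 of 20 sterol promoters (75%) and in 7 of 15 fatty acid promoters (46.7%), against 32.8% of the 16432 coding genes with a promoter interval. Among other genes of the same pathways it was present in 3 of 10 on the sterol side (30.0%) and 7 of 12 on the fatty acid side (58.3%). GGGCGG, an Sp1 core, was present in 18 of 20 (90.0%), 7 of 15 (46.7%) and 61.5%, respectively. The median GC content of the windows was close in the 3 sets, at 64.8%, 62.7% and 63.7%. The sterol regulatory element, searched as TCACNCCAC, matched 0 of 20 sterol promoters and 1 of 15 fatty acid promoters (Fasn, inside an annotated exon), against 1.05% of all. Its shorter core CACNCCAC, which lies within the longer form and was added after the first search, matched Sqle and Insig1 on the sterol side, 1 fatty acid promoter and 6.00% of all. CACGTG, the E-box, matched 1 sterol promoter and 0 fatty acid promoters against 7.27%, and the HNF4 letters CAAAGTCCA matched 0 members against 0.517%. These were matches of letters on both strands with no test, and a window without a match says only that the letters are not in it. In the RefSeq promoter table of the same genome assembly, which holds 17 of the 20 sterol genes, all 17 had CCAAT in at least 1 promoter window, against 42.1% of 12633 coding genes, and 10 of the 12 fatty acid genes found there did. In those windows the longer sterol element was in 1 of 17 sterol genes and 1 of 12 fatty acid genes against 1.42% of all, and the E-box in 4 of 17 (23.5%) and 2 of 12 against 10.9%, so the E-box share of the sterol list lay below that of all genes in the summit windows and above it here.

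The promoters below are the 6 sterol promoters with at least 2 CCAAT letters outside annotated exons within that window, and they are shown because the share with CCAAT was higher in the sterol list than over all promoters. Each line is the exon-free stretch, 5′ to 3′ on the strand of the gene, from the GRCm38.p6 (mm10) sequence, and capitals mark CCAAT or its reverse complement ATTGG. The stretches were Hmgcs1 at chr13:119690276-119690378 on the plus strand, Mvk at chr5:114444160-114444268 on the plus strand, Mvd at chr8:122443423-122443687 on the minus strand, Fdps at chr3:89101960-89102153 on the minus strand, Sqle at chr15:59314746-59315045 on the plus strand and Nsdhl at chrX:72918412-72918556 on the plus strand.
Hmgcs1: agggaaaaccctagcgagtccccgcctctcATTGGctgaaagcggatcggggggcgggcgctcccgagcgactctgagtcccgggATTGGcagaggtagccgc
Mvk: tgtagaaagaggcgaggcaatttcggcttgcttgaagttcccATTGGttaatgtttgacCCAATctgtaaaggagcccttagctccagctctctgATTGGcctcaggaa
Mvd: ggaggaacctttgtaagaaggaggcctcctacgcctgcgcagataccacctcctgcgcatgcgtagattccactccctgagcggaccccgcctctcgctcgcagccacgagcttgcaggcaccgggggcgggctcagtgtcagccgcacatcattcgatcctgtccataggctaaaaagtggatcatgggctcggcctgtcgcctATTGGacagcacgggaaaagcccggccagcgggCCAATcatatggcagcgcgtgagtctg
Fdps: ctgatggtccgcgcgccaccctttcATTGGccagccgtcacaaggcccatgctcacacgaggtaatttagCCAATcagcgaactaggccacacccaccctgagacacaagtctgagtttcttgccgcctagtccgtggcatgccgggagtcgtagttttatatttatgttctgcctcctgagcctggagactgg
Sqle: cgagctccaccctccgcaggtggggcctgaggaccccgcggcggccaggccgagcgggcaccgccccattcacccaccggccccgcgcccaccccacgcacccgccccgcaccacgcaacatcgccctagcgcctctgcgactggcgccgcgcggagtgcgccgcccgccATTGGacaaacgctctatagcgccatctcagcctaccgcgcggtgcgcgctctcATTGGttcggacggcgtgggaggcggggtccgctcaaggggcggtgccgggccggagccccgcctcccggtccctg
Nsdhl: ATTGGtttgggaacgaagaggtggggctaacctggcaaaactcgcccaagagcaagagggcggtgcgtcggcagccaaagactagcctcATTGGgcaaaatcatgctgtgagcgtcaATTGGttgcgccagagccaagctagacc
Mvk and Nsdhl hold 3 matches each within 109 and 145 bases, and the other 4 hold 2 each. The Mvk, Mvd, Fdps and Nsdhl stretches end at the base before a TSS, and those of Hmgcs1 and Sqle end at −68 and −36 bases from the nearest one of the GENCODE basic set, while the full annotation has starts of other transcripts closer by. The interval at Mvk is shared with the divergent gene Mmab and the one at Nsdhl with Cetn2, so accessibility there cannot be assigned to 1 gene of each pair. The same holds for Dhcr7 and Nadsyn1, and the Fdps interval also covers a TSS of the annotated gene Gm43738.

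**Figure D1:**
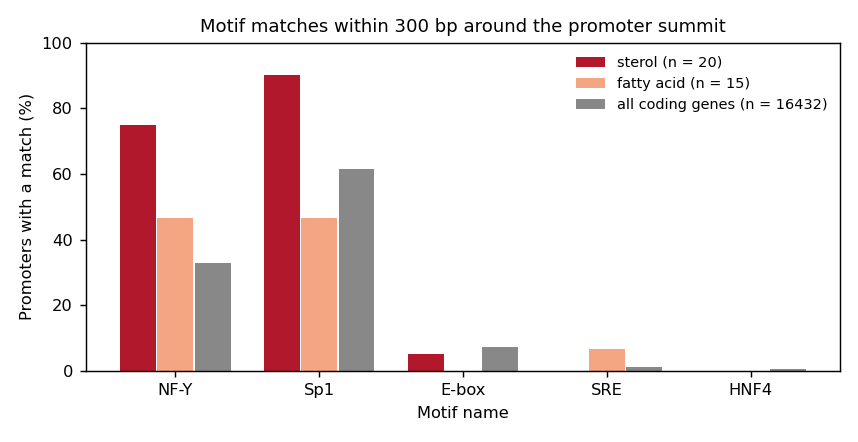
Share of promoters (y axis, percent) with at least 1 match to each named motif (x axis) in 300 bp around the summit, for 20 sterol genes, 15 fatty acid genes and 16432 coding genes. NF-Y and Sp1 letters were in 75% and 90.0% of sterol promoters, and in 32.8% and 61.5% of all.

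The libraries differed in ways that bear on every comparison. The lists held between 105206 and 154577 distinct intervals, they give no read counts, and the depth behind an interval is unknown. The median difference from 0 h over all coding genes on the −log2 rank scale was −0.151 for 48 h, −0.233 for 72 h, and −0.116 for 96 h, but with ranks divided by list length it was 0.0, 0.118 and 0.119, so that the lower ranking after PHx did not remain once list length was allowed for. Of 8 hepatocyte marker promoters, 8 were listed in both 0 h libraries, 5 and 6 in those of 48 h, 7 in each of 72 h, and 8 and 7 in those of 96 h, with a summed fold enrichment of 37.8 to 41.3 at 0 h and 19.5 to 27.7 at 48 h. By the rule used for the members, 7 of these 8 promoters were weaker at 48 h, 7 at 72 h and 5 at 96 h. Leukocyte marker promoters were listed for at most 1 of 7 genes and never among the 50000 strongest intervals, endothelial ones for 2 to 4 of 5 (summed fold enrichment 6.93 to 14.1), stellate ones for 3 to 5 of 5 (28.7 to 37.4) and biliary ones for 2 to 3 of 4 (17.2 to 25.9). Alb, a defining hepatocyte gene, had no promoter interval in the 48 h and 72 h libraries or in the second of 96 h. The part of these shifts in the results was not tested, and in bulk samples fewer nuclei with an open promoter and less opening per nucleus cannot be told apart. The 2 libraries at 96 h stood apart from each other at the sterol genes: 17 of 20 promoters had the larger rank number in the first, with a median absolute gap of 1.15 on the log2 scale, whereas it was 0.455 at 0 h, 0.303 at 48 h and 0.630 at 72 h. At the fatty acid genes 11 of 14 promoters had the larger rank number in the first 96 h library, with a median absolute gap of 0.658 against 0.305 to 0.395 at the other times.

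At 48 h after PHx, 14 of 20 sterol promoters were weaker in both libraries than in both 0 h libraries and 1 was stronger, where 24.9% of all coding promoters were weaker and 15.4% were stronger. Of the hepatocyte marker promoters, 7 of 8 were weaker by the same rule, and 3 of the 5 stellate ones were stronger; their part in the sterol count was not tested. The median difference over the list was −0.818, against −0.151 over all coding genes, and 16 of 20 genes lay below 0. The median rank of the list itself moved less, from 9771 and 8538 at 0 h to 11437 and 11549 at 48 h (15843 and 14970, then 18327 and 17587, over all coding genes), a difference of −0.110 relative to all genes on the log2 scale, where the median of the single-gene differences gives −0.667. The weaker promoters spanned the pathway: 5 of 6 mevalonate genes, 8 of 11 later sterol enzymes and 1 of 3 regulators. No member passed the limma fit over 13220 coding genes (adjusted p under 0.05, Benjamini-Hochberg), in which 0.0454% of genes did: 4 sterol genes (Idi1, Insig1, Lss and Msmo1) and Acly had an unadjusted p under 0.05, and the lowest adjusted p of a member was 0.264. Over all genes tested, 1651 (12.5%) had an unadjusted p under 0.05. The count was 13 of 20 when ranks were divided by list length (against 19.5% of all genes weaker and 18.3% stronger), 11 of 20 in ranks among promoters alone (19.4% of all genes), and 5 of 20 when intervals were ordered by fold enrichment in place of −log10 p (17.6% of all genes). Against only the genes listed in all 8 libraries the background share was 29.2%.

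**Figure D2:**
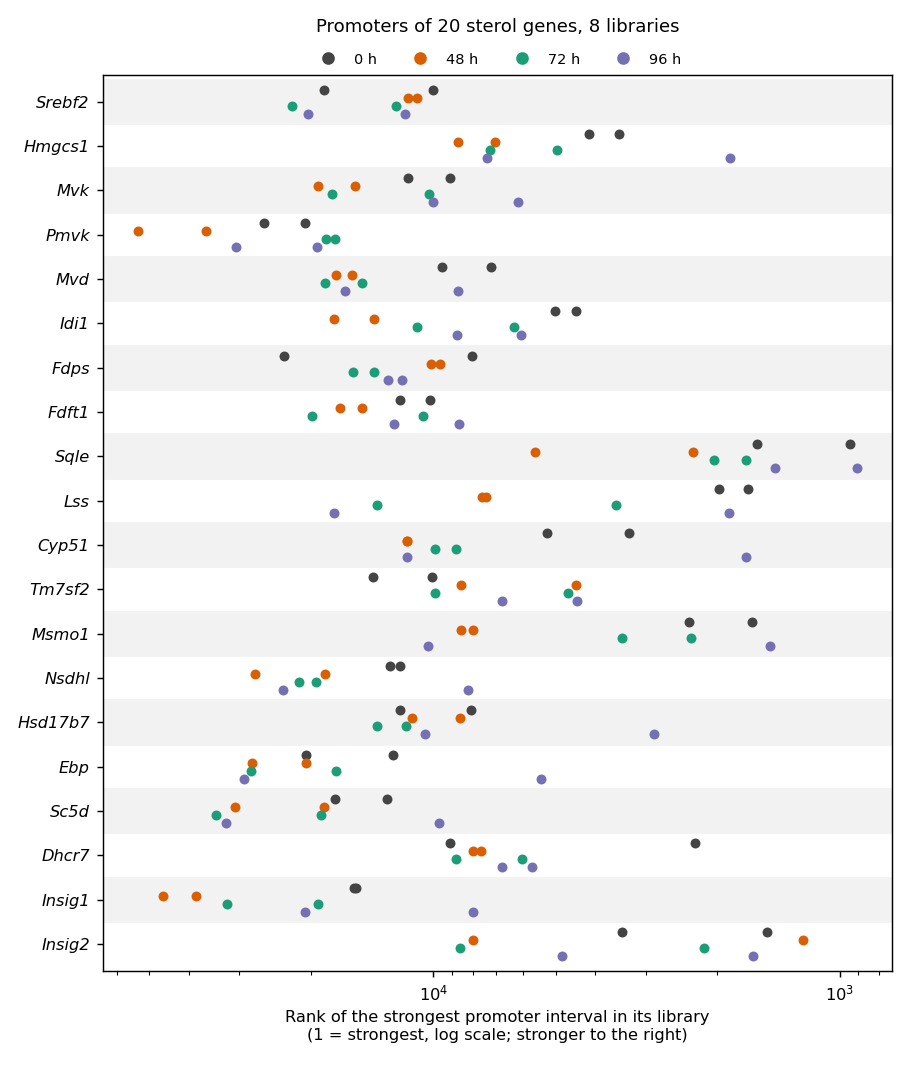
Rank of the strongest promoter interval (x axis, log scale, stronger to the right) of each of 20 sterol genes (rows), with 1 point for each library, coloured by time. At 48 h both points lie left of both 0 h points in 14 genes, and right of them in Tm7sf2.

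Among the mevalonate genes, Idi1, the isomerase that makes dimethylallyl pyrophosphate, lay at ranks 4447 and 5004 for 0 h, then 13953 and 17504 for 48 h, 6328 and 10974 for 72 h, and 8764 and 6070 for 96 h. All 6 libraries after PHx ranked behind both 0 h libraries, with the weakest at 48 h, although the 96 h difference turned from −0.63 to 0.14 when intervals were ordered by fold enrichment. The 48 h difference was −1.73 (SE 0.63, adjusted p = 0.264 in the limma fit), a 3.31-fold larger rank number. Hmgcs1, the synthase that makes HMG-CoA, lay at 4148 and 3495, then 7055 and 8707, 4954 and 7251, and 7388 and 1860. Its 48 h and 72 h libraries were all behind 0 h, while those of 96 h fell on either side. Mvd, which decarboxylates mevalonate pyrophosphate, lay at 9494 and 7222, then 15826 and 17318, 14941 and 18506, and 16470 and 8686. Both its 48 h and its 72 h libraries ranked behind 0 h, by a similar difference (−1.01 for 72 h), and 96 h overlapped 0 h. Pmvk, phosphomevalonate kinase, lay at 20681 and 26092, then 53145 and 36149, 18396 and 17466, and 19284 and 30624. It was weaker at 48 h and stronger at 72 h than at 0 h. Mvk, mevalonate kinase, lay at 11549 and 9082, then 15550 and 19167, 10229 and 17714, and 9994 and 6203. Its promoter was weaker at 48 h, and both 96 h libraries ranked ahead of both 48 h libraries. Fdps, the farnesyl pyrophosphate synthase, was the mevalonate gene that overlapped 0 h at 48 h, and its 0 h libraries were the farthest apart of that group, at 23264 and 8027.

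The 2 members with the largest differences at 48 h were Msmo1 and Lss. Msmo1, a methylsterol oxidase, lay at ranks 2347 and 1644 for 0 h, then 8548 and 7993 for 48 h, 2316 and 3426 for 72 h, and 10307 and 1481 for 96 h. Its 48 h libraries were close to each other and both behind 0 h, 72 h overlapped 0 h, and the 96 h libraries lay outside the 48 h pair on both sides. The 48 h difference was −2.07 (SE 0.79, adjusted p = 0.273, limma). Lss, which cyclises squalene epoxide to lanosterol, lay at 1679 and 1978, then 7397 and 7608, 3557 and 13733, and 17507 and 1872. The 0 h pair and the 48 h pair were each tight, and the 72 h and 96 h pairs were wide. Its 48 h difference was −2.04 (SE 0.81, adjusted p = 0.295, limma), and its peak fold enrichment over local background was 18.2 and 17.6 at 0 h and 10.0 and 11.5 at 48 h, while the median over all coding promoters was 10.6 and 11.1, then 7.76 and 8.18. The median over the sterol list was 10.2 and 12.3, then 7.51 and 8.42, about the same proportion between the times as for all promoters. Sqle, squalene epoxidase, lay at 1600 and 946, then 2297 and 5627, 2035 and 1704, and 1443 and 909. Both 48 h and both 72 h libraries were behind 0 h, and both 96 h libraries were ahead of those at 48 h. Cyp51, the lanosterol demethylase, lay at 5264 and 3308, then 11577 and 11578, 9878 and 8800, and 11617 and 1705. It was weaker at 48 h and 72 h, and the 72 h pair ranked ahead of the 48 h pair.

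Nsdhl, which acts with Msmo1 in removing methyl groups from the sterol ring, lay at 12106 and 12754, then 27380 and 18445, 21441 and 19379, and 23378 and 8205. Sc5d, a sterol desaturase, lay at 17411 and 12994, then 18580 and 30734, 34300 and 18865, and 32330 and 9700. Both genes were weaker at 48 h and at 72 h, but Sc5d turned to a small positive difference of 0.06 at 48 h when intervals were ordered by fold enrichment. Fdft1, squalene synthase, lay at 10186 and 12095, then 14961 and 16931, 10604 and 19859, and 12465 and 8638. Ebp, a sterol isomerase, lay at 12559 and 20559, then 27889 and 20622, 17321 and 28034, and 29183 and 5426. Both were weaker at 48 h alone, and for Ebp the nearest 0 h and 48 h libraries were almost level. Tm7sf2, a sterol reductase, went the other way, at 10056 and 14105, then 8534 and 4452, 4660 and 9901, and 4417 and 6775. All 6 libraries after PHx ranked ahead of both 0 h libraries, with differences of 0.95, 0.81 and 1.12 in time order, none past the limma threshold. Hsd17b7 and Dhcr7, reductases of the late pathway, overlapped 0 h at 48 h, with differences of 0.00 and −0.78.

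The 3 regulators of the sterol list differed from each other. Insig1, itself a target of SREBPs, lay at ranks 15492 and 15677 for 0 h, then 46332 and 38433 for 48 h, 19246 and 32125 for 72 h, and 20707 and 7964 for 96 h. The 0 h libraries agreed closely, the 48 h libraries were both far behind, and those of 96 h lay on either side of 0 h. Its 48 h difference was −1.44 (SE 0.54, adjusted p = 0.265, limma). Srebf2, which encodes SREBP-2, lay at 18533 and 10039, then 10953 and 11519, 22229 and 12344, and 20373 and 11718. It overlapped 0 h at every time point. Insig2, the paralog that is less dependent on SREBPs, lay at 3437 and 1512, then 1230 and 7973, 8579 and 2162, and 4827 and 1631, and also overlapped 0 h throughout, with wide pairs after PHx.

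At 72 h, 9 of 20 sterol promoters were weaker than at 0 h and 2 were stronger (Pmvk and Tm7sf2), where 27.2% and 15.5% of all coding promoters were. The median difference was −0.626 against −0.233 over all genes. Divided by list length, the counts were 5 weaker and 2 stronger, where the all-gene split turned to 14.6% weaker and 25.5% stronger. In ranks among promoters 6 were weaker and 2 stronger (20% and 19.7% of all), and with intervals ordered by fold enrichment 4 were weaker (23.0% of all). The 72 h median was −0.2755 by list length, −0.239 among promoters and −0.178 by fold enrichment, against 0.118, −0.041 and −0.162 over all genes. The 9 promoters were Hmgcs1, Mvd, Idi1, Sqle, Lss, Cyp51, Nsdhl, Sc5d and Insig1, and each was also weaker at 48 h, but both comparisons share the 0 h libraries. At 96 h 1 was weaker (Idi1) and 1 was stronger (Tm7sf2), against 17.1% and 13.4% of all coding promoters, and the median difference was −0.079 against −0.116. That median turned direction under other orderings, at 0.156 by list length, 0.065 among promoters and 0.236 by fold enrichment (0.119, −0.021 and −0.027 over all genes). Divided by list length the counts were 1 and 2, where the all-gene split was 10.7% weaker and 20.4% stronger. That result rested on 2 libraries that pointed apart. With the first 96 h library alone, 13 sterol promoters ranked behind both 0 h libraries, as did 38.4% of all coding promoters, and with the second alone 12 ranked ahead of both, as did 34.4%.

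Compared with 48 h directly, which leaves the 0 h libraries out, 7 sterol promoters were stronger at 96 h (Mvk, Pmvk, Idi1, Fdft1, Sqle, Dhcr7 and Insig1) and 2 were weaker (Srebf2 and Fdps), where 17.1% and 13.6% of all coding promoters were. At 72 h against 48 h, 6 were stronger (Pmvk, Idi1, Sqle, Cyp51, Msmo1 and Insig1) and 3 weaker (Srebf2, Fdps and Hsd17b7), against 16.3% and 17.0% of all. Both directions moved with the ordering: at 72 h against 48 h, ranks divided by list length gave 9 stronger and 1 weaker (22.6% and 10.4% of all), whereas fold enrichment gave 3 stronger and 6 weaker (13.4% and 20.9% of all). At 96 h against 48 h fold enrichment gave 5 stronger and 2 weaker (13.8% and 14.7% of all). The median difference was 0.771 for 96 h minus 48 h, against 0.034 over all genes, and 18 of 20 genes lay above 0. This rested on the second 96 h library: without it the median was 0.0013, with 8 stronger and 7 weaker (31.5% and 29.2% of all), and without the first it was 1.41, with 16 and 2 (38.7% and 26.2%). Insig1 differed by 1.72 (SE 0.54, adjusted p = 0.509, limma), and by 2.41 once the first 96 h library was left out. In that case 96 h is a single library assumed to vary like the other groups, and so has no replicate support. No member passed the fit in either comparison with all libraries, and the whole fit called no gene there (0.00% of genes in each), with 1042 and 809 genes at an unadjusted p under 0.05, and 2 and 1 members among them.

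Of the fatty acid promoters, 5 of 15 were weaker at 48 h than at 0 h and 0 were stronger, beside the 24.9% and 15.4% of all coding promoters given above. At 72 h, 7 were weaker and 0 stronger (27.2% and 15.5% of all), and at 96 h, 7 were weaker and 2 stronger (17.1% and 13.4% of all). The median differences in time order were −0.316, −0.416 and −0.423, against −0.151, −0.233 and −0.116 over all genes. The 96 h value depended on the library: it was −0.285 without the first 96 h library, with 8 weaker and 6 stronger (30.8% and 34.4% of all), and −0.905 without the second, with 12 and 2 (38.4% and 29.7%). By fold enrichment the 48 h median turned to 0.060, against −0.058 over all genes. In ranks among promoters the 96 h median was −0.018, against −0.021 over all genes. With ranks divided by list length the weaker counts were 4, 4 and 7, against 19.5%, 14.6% and 10.7% of all, and ordered by fold enrichment they were 2, 10 and 4, against 17.6%, 23.0% and 13.0%. No fatty acid gene passed the limma fit at any time. The 72 h fit called 0.00% of all genes and the 96 h fit 0.00756%, with 1303 and 695 genes at an unadjusted p under 0.05, and 2 and 5 of the 34 members tested among them.

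**Figure D3:**
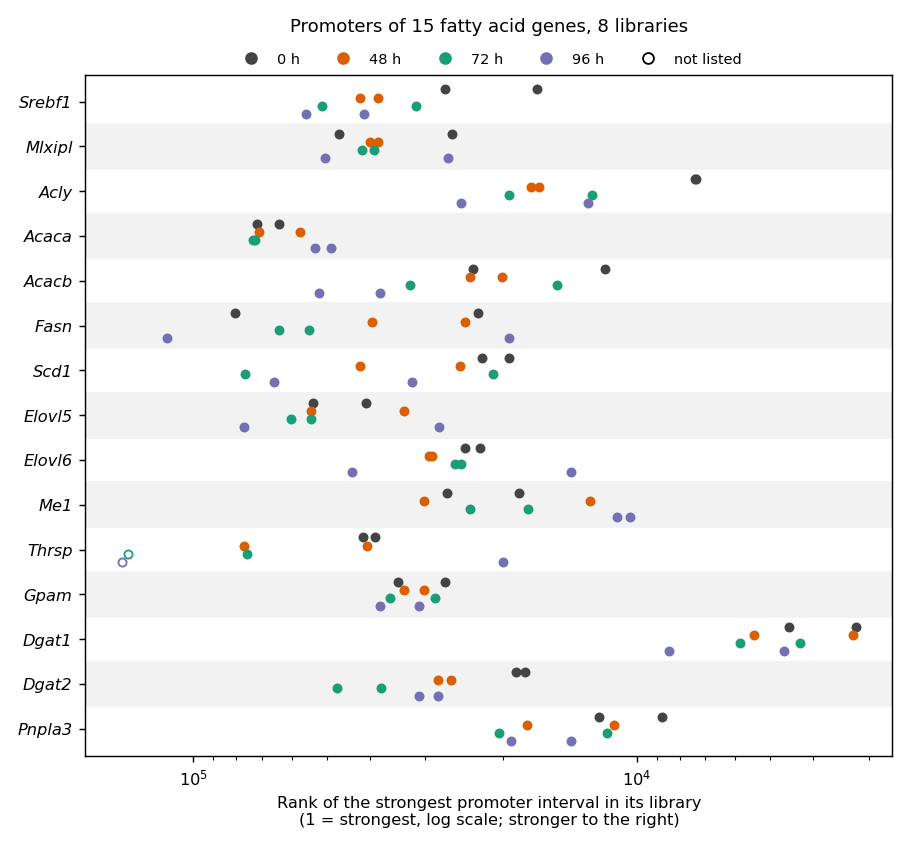
Rank of the strongest promoter interval (x axis, log scale, stronger to the right) of each of 15 fatty acid genes (rows), with 1 point for each library, coloured by time; open points mark libraries without an interval, drawn behind the end of their list. Srebf1, Acly and Dgat2 have all points after PHx left of both 0 h points.

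Srebf1, which encodes the SREBP-1 proteins, lay at ranks 27008 and 16755 for 0 h, then 42137 and 38274 for 48 h, 31411 and 51153 for 72 h, and 55685 and 41106 for 96 h. All 6 libraries after PHx were behind both 0 h libraries. Its differences were −0.92, −0.91 and −1.17 (SE 0.45 each), with adjusted p = 0.404, 0.512 and 0.907 in the limma fit. Mlxipl, which encodes ChREBP, lay at 46867 and 26066, then 40021 and 38328, 41686 and 39168, and 50399 and 26577, and overlapped 0 h throughout. These ranks do not follow 1 interval: the summit lay within 15 bp of the TSS in 3 libraries and at least 981 bp downstream of it in the other 5. Thrsp, a lipogenic protein of hepatocytes, lay at 41394 and 38878 at 0 h, 76636 and 40506 at 48 h, 75750 in the second 72 h library and 19983 in the second 96 h library, and had no interval in the first library of 72 h or of 96 h. It counted as weaker at 72 h and overlapped 0 h at the other times.

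Among the enzymes, Acly, the lyase that releases acetyl-CoA from citrate for both pathways, lay at 7339 and 7408 for 0 h, then 16579 and 17341 for 48 h, 12598 and 19371 for 72 h, and 24891 and 12907 for 96 h. The 0 h pair was tight and all later libraries were behind it. The differences were −1.20, −1.08 and −1.28 (SE 0.58 each), and adjusted p in limma was 0.384, 0.540 and 0.924. Scd1, the stearoyl-CoA desaturase, lay at 22356 and 19380, then 25008 and 42074, 76605 and 21086, and 65901 and 32105. It was weaker at 48 h and 96 h and had a wide pair at 72 h. Elovl6, an elongase, lay at 22558 and 24333, then 29371 and 28976, 24933 and 25641, and 43881 and 14078, so that its gaps at 48 h and 72 h were small but without overlap, and the 72 h difference turned to 0.04 in ranks among promoters. Fasn, the fatty acid synthase itself, overlapped 0 h at every time point and had wide pairs, at 80628 and 22816 at 0 h and 114625 and 19400 at 96 h. Acacb, the carboxylase that makes malonyl-CoA at mitochondria, was weaker at 96 h alone, with a difference of −1.42. Me1, malic enzyme, which supplies NADPH, was stronger at 96 h (1.05). The other carboxylase, Acaca, had small differences that were weaker at 72 h (−0.10, or 0.06 ordered by fold enrichment) and stronger at 96 h (0.41), and Elovl5 was weaker at 72 h alone (−0.29).

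Of the 4 glycerolipid genes, 1 was weaker at 48 h, 1 at 72 h and 3 at 96 h, where 24.9%, 27.2% and 17.1% of all coding promoters were. Dgat2, an acyltransferase that completes triglycerides, lay at ranks 17863 and 18691 for 0 h, then 28008 and 26230 for 48 h, 47373 and 37743 for 72 h, and 30988 and 28011 for 96 h. All 6 libraries after PHx were behind both 0 h libraries, the 72 h pair was the weakest, and the differences were −0.57, −1.21 and −0.69 (SE 0.47 each), although those at 48 h and 96 h turned to 0.11 and 0.0066 with intervals ordered by fold enrichment. Dgat1 and Pnpla3, another such acyltransferase and a lipid droplet enzyme, were weaker at 96 h alone, by −0.72 and −0.67. Gpam, which starts glycerolipid assembly, overlapped 0 h at all times, with differences from −0.17 to −0.06.

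**Figure D4:**
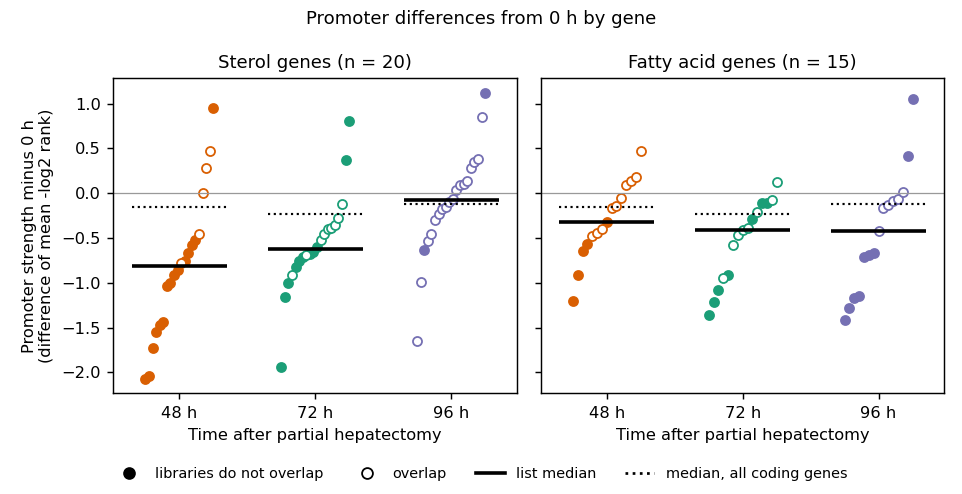
Difference in promoter strength from 0 h (y axis, −log2 rank) by time after PHx (x axis) for each sterol and fatty acid gene, with filled points where libraries do not overlap, the list median (solid line) and the median of all coding genes (dotted line). The sterol median goes from −0.818 at 48 h to −0.079 at 96 h, and the fatty acid median from −0.316 to −0.423.

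Set side by side, the sterol list differed from the all-gene median by −0.667, −0.394 and 0.037 in time order, and the fatty acid list by −0.166, −0.183 and −0.307. With 1 library of each time point, the 4 pairs of libraries gave the sterol list −0.988 to −0.603 at 48 h, −0.599 to −0.184 at 72 h and −0.561 to 0.751 at 96 h, and the fatty acid list −0.419 to −0.0088, −0.380 to 0.0080 and −0.671 to −0.022. All 4 pairs thus lay below 0 for the sterol list at 48 h and 72 h and for the fatty acid list at 48 h and 96 h, with the nearest pair close to 0 in the latter list. By fold enrichment the pairs lay on both sides of 0 for both lists at every time, with −0.458 to 0.036 for the sterol list at 48 h. In ranks among promoters the sterol pairs ran from −0.458 to −0.311 at 48 h and from −0.308 to −0.061 at 72 h, and the fatty acid pairs at 96 h from −0.198 to 0.026. Taken as the difference between the medians of each library in place of the median of the differences of single genes, the sterol values were −0.110, −0.088 and 0.230 and the fatty acid values −0.136, −0.281 and −0.440, so that the order of the 2 lists at 48 h and 72 h depended on this choice. The difference between the lists was not tested. The CCAAT letters and the 48 h counts can also be set together: 12 of the 15 sterol promoters with CCAAT were weaker at 48 h and 2 of the 5 without, while among all coding genes 32.5% of those with CCAAT and 21.2% of those without were weaker. Among fatty acid genes the counts were 2 of 7 and 3 of 8.

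Further genes of the same pathways were counted by the same rule and read beside the same shares of all coding promoters. Of 10 other sterol genes (among them Scap, the SREBP escort, and the proteases Mbtps1 and Mbtps2), 3 were weaker and 1 stronger at 48 h, 4 were weaker and 0 stronger at 72 h, and 0 were weaker and 2 stronger at 96 h. Of 12 other fatty acid genes (among them Slc25a1, Acss2 and Pklr), 2 were weaker and 2 stronger for 48 h, 6 and 1 for 72 h, and 0 and 1 for 96 h. None of these genes passed the limma fit in any comparison.

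Outside the promoters, the 50000 strongest intervals of each library were merged into 73710 regions, of which 52 lay within 10 kb of a sterol gene or inside it and 109 at a fatty acid gene. Lss, Cyp51 and Dgat1 had none. Regions present in all 8 libraries made up 26.9% of the sterol and 29.4% of the fatty acid regions, against 38.7% of all regions, which include promoters, whereas member regions leave out those of their own gene. Away from every coding TSS by over 1 kb, the shares were 22.2% of 45 sterol and 26.9% of 104 fatty acid regions, against 30.8% of 59130. At 48 h, 11 fatty acid regions were lost (present in both 0 h libraries and neither 48 h library) and 3 were gained, and 2 sterol regions were lost and 2 gained, where 3.50% of all regions were lost and 2.65% gained (3.99% and 2.91% of those away from a coding TSS). At 72 h the fatty acid counts were 6 lost and 5 gained and the sterol counts 3 and 2 (2.74% and 2.88% of all), and at 96 h they were 7 and 5, and 2 and 1 (2.42% and 2.23%). Presence here is a place among the 50000 strongest: 0 of these regions at any time point lacked an interval in both full lists of the other side. By rank, 36 of 109 fatty acid regions were weaker at 48 h and 17 stronger, and 14 of 52 sterol regions were weaker and 9 stronger, against 23.9% and 18.9% of all regions. No member region passed a limma fit over the 55123 regions with an interval in every library, where 0.0200% did at 48 h, 0.00% at 72 h and 0.00% at 96 h, and where 15 of the 118 member regions tested had an unadjusted p under 0.05 at 48 h, beside 6651 of all. Between 96 h and 48 h 0.0109% of regions passed, and no member region did.

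The member region with the lowest adjusted p was at Thrsp. A region at −6136 bp from its TSS, chr7:97423515-97424152 (mm10), lay at ranks 16668 and 12366 for 0 h, then 83605 and 52858 for 48 h, 39111 and 38006 for 72 h, and 39336 and 28332 for 96 h. Both 48 h libraries were the weakest, and the 72 h and 96 h libraries stood between them and 0 h. The difference at 48 h was −2.21 (SE 0.48, unadjusted p = 3.37e-05, adjusted p = 0.0806 in the region limma fit). A neighbour at −7287 bp, chr7:97424728-97425286, named after its values were seen, went the opposite way, at 32620 and 38265, then 5984 and 12132, 36247 and 37502, and 35647 and 24958. Its 48 h libraries ranked ahead of every other library (difference 2.05, SE 0.53, adjusted p = 0.121, limma), and it ranked ahead of the first region in all 6 libraries after PHx, whereas the first region was ahead in both 0 h libraries. The 150 bases around the summit of the first region, chr7:97423791-97423940 on the minus strand, are shown because of that lowest adjusted p, and none of the 5 planned motifs occurs in them, so that no letter is in capitals.
Thrsp upstream region: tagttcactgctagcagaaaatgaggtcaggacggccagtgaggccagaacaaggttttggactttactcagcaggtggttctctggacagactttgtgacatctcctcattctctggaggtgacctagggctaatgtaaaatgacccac

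**Figure D5:**
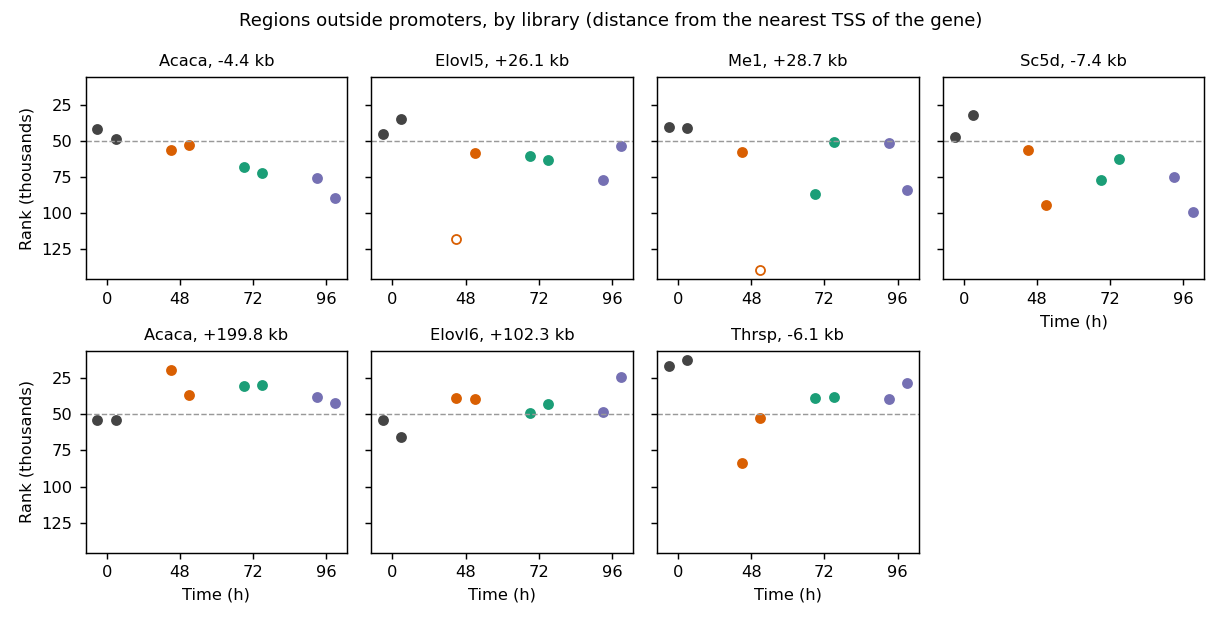
Rank divided by 1000 (y axis, stronger at the top) of 7 regions outside promoters by time (x axis), with 1 point for each library, open where the library lists no interval; the dashed line is rank 50000 and titles give the gene and the distance from its nearest TSS. The first 6 panels are lost or gained at all 3 times after PHx, and the Thrsp panel is lost at 48 h alone.

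Of the 161 regions, 4 were lost and 2 gained at all 3 time points, where 0.547% and 0.346% of all 73710 regions were; the 3 comparisons share the 0 h libraries, and no test was made of these counts. The lost ones were in introns of Acaca (chr11:84190763-84191176), Elovl5 (chr9:77943393-77943649) and Me1 (chr9:86658369-86658755), and upstream of Sc5d at −7389 bp (chr9:42271219-42271815). The Acaca region lay at ranks 41840 and 48996 at 0 h and at 56407 and 53040, 68067 and 72041, and 75583 and 89701 at the later times, so each pair was weaker than the one before. The gained regions were in an intron of Acaca (chr11:84394685-84395392) and over an exon of Elovl6 (chr3:129634393-129634832). That Acaca region lay at 54215 and 54150 for 0 h, then 19639 and 36661 for 48 h, 30276 and 29833 for 72 h, and 38029 and 42123 for 96 h, all later libraries being stronger. Further losses at 48 h were at Acaca, Acly, Elovl6 (3 regions), Gpam (2 regions) and Ebp, and further gains at Srebf1, Dhcr7 and Mvk. Dgat2, Mvd, Tm7sf2 and Elovl6 (2 regions) had losses and Acacb, Acly, Thrsp, Dhcr7 and Srebf2 gains at 72 h, and Acaca, Acly (2 regions), Elovl5 and Ebp had losses and Gpam, Scd1, Srebf1 and Insig2 gains at 96 h. The Tm7sf2 and Srebf2 regions lie at promoters of neighbouring genes (Fau and Mrpl49, and Shisa8).

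The strongest regions outside promoters were listed at every time. Near sterol genes they were 9361 bp from the nearest Insig1 TSS, downstream of that gene (chr5:28078837-28082134, ranks 1134 to 15314), upstream of Pmvk (chr3:89449164-89449979, 4734 to 22664) and in an intron of Hmgcs1 (chr13:119697838-119698979, 3576 to 32588). Near fatty acid genes they were in an intron of Acaca (chr11:84179151-84180478, 864 to 2323), upstream of Elovl5 at −6718 bp (chr9:77910115-77911734, 686 to 3277) and downstream of Me1 at the promoters of Pgm3 and Rwdd2a (chr9:86571014-86572607, 1160 to 5079). In all 8 libraries the Acaca and Elovl5 regions ranked ahead of the promoters of their genes, which lay at 49024 to 73328 and at 27843 to 76892. The interval taken as the Acaca promoter had its summit at a median of 586 bp downstream of the nearest TSS.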

How the data were processed

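Nuclei of hepatocytes from 4 groups of 2 libraries were profiled by bulk ATAC-Seq. Per the labels and the study's methods, the authors trimmed reads, aligned them to mm10 with Bowtie2, removed PCR duplicates and called peaks in each library separately with MACS2 in the ENCODE pipeline, with Tn5-shifted tags, a p-value limit and a blacklist filter (tool versions are not given in the sources used here). The deposited lists give for each peak a display score, a fold enrichment (a ratio of the summit to local background), −log10 p and −log10 q as the authors' caller wrote them; the score and −log10 q were not used. They hold no read counts, so depth is unknown and no counting interval can be given, and the study's count-based test could not be run.

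Lines with the same interval were collapsed to the one with the highest −log10 p, intervals were ranked within each library, and genes were taken from the basic set of GENCODE M21 on GRCm38.p6. Promoter strength was fitted with limma 3.58.1 (R 4.3.3, group means, trended empirical Bayes, Benjamini-Hochberg) over coding genes listed in all 8 libraries, and the script was tested on simulated data. An unlisted promoter took the rank after the end of its list. Values in every library are given for members that did not overlap 0 h at 48 h and for the regulators, with other members by range and count. Members and lists were chosen with earlier results of these data known. Of the further pathway genes planned, 2 are not reported here. The 72 h against 48 h comparison, the region fit, the shorter sterol element, the background of genes listed in every library, the values in pairs of libraries, the difference of list medians, the regions away from a coding TSS, the regions called at all 3 times and the choice of printed sequences were added after the data were seen: sequences with the longer sterol element had been planned, and no match lay outside an exon. Alternatives were ranks divided by list length, ranks among promoters, ordering by fold enrichment, windows of 500 bp and 2 kb, other region limits, a replicate block, and leaving out each library. Tables and figures were made with Python 3.11.15, pandas 2.3.3, numpy 2.4.6 and matplotlib 3.10.9.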

Additional observations from a re-analysis of the deposited data

Results flagged for a closer look

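Pmvk stood out because its libraries went opposite ways at adjacent times: both 48 h libraries ranked behind both 0 h libraries (difference −0.916) and both 72 h libraries ranked ahead of them (0.374). The difference between the 2 times was 1.29 (adjusted p = 0.726 in the limma fit). Acaca stood out in the same way, with −0.1044 at 72 h and 0.4129 at 96 h, and the difference between those times was not tested. By fold enrichment the 72 h value of Acaca was 0.059.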

How the results depend on the processing

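No member passed the limma fit at 48 h, 72 h or 96 h against 0 h in the alternatives that were fitted: both other windows, ranks among promoters, ordering by fold enrichment, genes listed in at least 1 library, each library left out and the replicate block (0 members called). Ranks divided by list length were not fitted. Same-numbered libraries did not deviate together in their ranks (correlations from −0.0856 to 0.116). The labels do not say whether they were prepared together, and these correlations cannot settle it. For 96 h against 48 h, leaving out 1 library changed the call of Insig1 alone among the members, in the fit without the first 96 h library. That fit has a single library at 96 h, and it called more genes over the whole set than the full fit did. A tally under alternatives covers the counts of members called in the limma fits as well as the list values. In it, 104 values stayed within the spread (the SD of a list's median strength between the libraries of a time point) or within 1.5 times the count, and 40 did not. With 1 library left out, 87 did and 49 did not. Fits that again called no member are among the unchanged values, so the list values alone stayed within these limits less often. The causes were not tested.

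For the sterol genes, the median difference at 48 h was −0.326 in ranks among promoters and −0.280 by fold enrichment (−0.020 and −0.058 over all genes), and at 72 h −0.239 and −0.178 (−0.041 and −0.162), so that by fold enrichment the 72 h value is close to that of all genes. At 96 h it was 0.156 by list length, 0.065 among promoters and 0.236 by fold enrichment, above 0 where the reported −0.079 was below. The weaker counts by fold enrichment were 5, 4 and 0 in time order (17.6%, 23.0% and 13.0% of all genes). That at 72 h was 5 with ranks divided by list length (14.6%). The stronger counts at 48 h and 96 h were 2 under list length, among promoters and fold enrichment. In those orderings 18.3%, 19.4% and 18.5% of all genes were stronger at 48 h, and 20.4%, 15.3% and 14.1% at 96 h. For the fatty acid genes, the median by fold enrichment at 48 h was 0.060, that at 72 h was −0.066 by list length and −0.127 among promoters, and that at 96 h among promoters was −0.018. Their weaker counts were 2 at 48 h and 4 at 96 h by fold enrichment (17.6% and 13.0% of all genes). They were 3 at 48 h in the 2 kb window (24.3%) and 4 at 72 h by list length (14.6%). At 48 h, 1 was stronger by fold enrichment (18.5% of all genes) and 1 in the 2 kb window (15.9%), and 1 at 72 h by list length (25.5%).

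Regions gained and lost were 0 of 161 in each comparison when absence from the full lists was required, a rule that 0.0095% to 0.128% of all regions met. With the 25000 strongest intervals, of 70 regions 2, 4 and 3 were gained (3.65%, 3.29% and 2.54% of all) and 4, 4 and 3 lost (4.17%, 3.33% and 2.78%) in time order, and the fatty acid losses at 48 h were 3 of 51. At 96 h, 1 of 161 was gained with at least 50% of the region covered (2.41% of all regions). With all distinct intervals, 3 of 233 sterol and 8 of 425 fatty acid regions were gained at 96 h (11 in all, 1.56% of all regions) and 10 and 10 lost (20 in all, 0.940%). Single genes that turned direction by fold enrichment were Sc5d (0.063) and Dgat2 (0.11) at 48 h, Acaca (0.059) at 72 h, and Idi1 (0.14) and Dgat2 (0.0066) at 96 h; Elovl6 turned at 72 h among promoters (0.045).

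Leaving out 1 library, sterol stronger counts ranged from 1 to 4 at 48 h, 2 to 4 at 72 h and 2 to 12 at 96 h, and weaker counts from 14 to 17, 12 to 15 and 2 to 13, while the shares of all genes ranged from 23.9% to 31.6%, 24.5% to 30.6% and 23.5% to 34.4% stronger, and from 36.0% to 40.6%, 39.3% to 42.2% and 29.3% to 38.4% weaker. The sterol median ranged from −0.989 to −0.843, −0.756 to −0.452 and −0.721 to 0.460. Fatty acid stronger counts ranged from 1 to 2, 0 to 2 and 2 to 6, weaker counts from 6 to 11, 8 to 13 and 8 to 12, and medians from −0.519 to −0.210, −0.818 to −0.187 and −0.905 to −0.285. Regions gained ranged from 7 to 15, 9 to 16 and 9 to 16, and lost from 19 to 26, 14 to 18 and 14 to 17, while the shares of all regions ranged from 4.53% to 7.89%, 4.89% to 7.77% and 4.07% to 7.76% gained, and from 6.57% to 8.75%, 5.52% to 8.02% and 5.25% to 7.38% lost. With 1 library left in a group, more genes avoid overlap by construction.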
